A study of Mus musculus with 6 samples.

Results

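The genes described here encode nuclear subunits of the 5 complexes of oxidative phosphorylation, with a few assembly factors that share their naming. They were picked by name alone from the 48321 gene names of the deposited table: names that start with Nduf, Uqcr or Atp5, the names Sdha to Sdhd, and the Cox4 to Cox8 subunit names, leaving out endings that mark pseudogenes and antisense transcripts. The patterns matched 98 names, 6 of which carried a pseudogene ending, so 92 genes remained: 44 of complex I, 4 of complex II, 8 of complex III, 20 of complex IV and 16 of complex V. RNA had been sequenced from isolated islets of C57BL6 mice. The high-fat diet (HFD) libraries, 3 in number, came from mice that took 60% of their calories as fat for 4 months from the age of 3 months. The normal chow libraries were also 3 by their labels, with no age or feeding time of their own, and an age match between the groups is not stated. All 6 are labelled wild type, and separate animals are not named in the labels, which leaves to p-values only the spread among these libraries, in part perhaps technical.

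Oxidative phosphorylation turns the energy of NADH and succinate into ATP at the inner mitochondrial membrane. Complexes I and II pass electrons to ubiquinone, complex III passes them to cytochrome c, complex IV passes them to oxygen, and complex V uses the proton gradient that complexes I, III and IV build to make ATP. In pancreatic beta cells this ATP closes potassium channels that hold the membrane at rest, which is how glucose metabolism is coupled to insulin release. Most subunits are encoded in the nucleus and a few in mitochondrial DNA, and several complex IV subunits exist as a widely expressed form and a form restricted to muscle, lung, testis or other tissues.

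Values are CPM (reads of a gene scaled to a fixed library total), and differences are on the log2(CPM + 1) scale, HFD minus chow, which understates the change of low genes. The column of chow replicate 2 was the mean of chow replicates 1 and 3 in 48321 of 48321 rows and was left out, so HFD had n = 3 and chow n = 2. The values of all genes summed to 963615, 832416 and 879301 CPM in HFD libraries and 841705 and 674482 CPM in chow libraries. The spacing of the low values implied 18.8 to 35.1 M reads per library, at which 3 reads are worth 0.0856 to 0.16 CPM (a floor that covers counting error only). Islet markers were abundant: the beta-cell list made up 9.12, 11.5 and 9.97% of the summed CPM in HFD libraries and 6.85 and 11.9% in chow libraries. Of the 10 genes of that list, 4 were called higher on HFD, against 14.9% of all genes tested. The alpha-cell list made up 1.2, 1.53 and 1.51% in HFD libraries and 1.27 and 0.379% in chow libraries, with chow replicate 3 standing apart (Gcg, the glucagon gene, at 2332 CPM there against 10102 to 11992 CPM in the other libraries). Acinar genes, of the enzyme-secreting tissue around the islets, made up 11.8, 1.6 and 4.73% in HFD libraries and 27.5 and 10.6% in chow libraries. Of the 27 acinar genes, 1 was called lower on HFD, and of 6 fibroblast markers 5 were, against 8.78% of all genes tested. The non-polyadenylated RNA Rn7sk was at 3626, 3192 and 3935 CPM in HFD libraries against 6.27 and 13.3 CPM in chow libraries, and the prefix of the sample names follows the diet. The labels do not name a library type. For every gene below, diet cannot be told apart from anything else that follows the prefix, such as how the libraries were made. In whole islets, fewer cells of a type and less RNA per cell cannot be told apart either.

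Of the 92 genes, 87 passed the filter of a mean of at least 0.5 CPM, and the 5 that did not were the restricted complex IV forms Cox6b2, Cox7a1, Cox7b2, Cox8b and Cox8c. With limma across all 16939 genes tested and a Benjamini-Hochberg adjusted p below 0.05, 13 of the 87 were higher and 10 lower on HFD, and 64 passed in neither direction. Over all genes tested, 14.9% were called higher and 8.78% lower, 23.7% in either direction, so the shares among these genes, 14.9% and 11.5%, lay near the background. Their median log2 difference was 0.01, against 0.05 over all genes tested, and 71 of the 87 moved by less than 0.5. The split depended on the scaling. With median-ratio scaling 8 were higher and 13 lower (11.8% and 11.5% of all genes tested), and with the trimmed mean of M values 7 and 12 (11.2% and 11.4%). With library sizes without acinar and insulin genes 2 were higher and 49 lower (4.75% and 40.6% of all genes tested), a scaling under which the median of all genes itself shifted to -0.34 and that of these genes to -0.43, and 39 of the 87 differences turned from positive to negative. Without chow replicate 1, the library with the most acinar RNA, 6 were higher and 6 lower (7.95% and 4.65% of all genes tested). Leaving out HFD replicate 1 gave 5 higher and 8 lower (8.67% and 4.65% of all genes tested), HFD replicate 2 gave 6 and 4 (7.01% and 4.07%), and HFD replicate 3 gave 7 and 5 (7.27% and 4.39%). Without chow replicate 3, the library low in alpha-cell RNA, 10 were higher and 8 lower (17.5% and 8.43%). The HFD and chow libraries did not overlap in 55 of the 87 genes, 63.2%, against 55.4% of all genes tested. In simulated libraries, 3% of changes of 0.5 log2 and 62% of changes of 1 were called. Only 100 genes of each size were changed there, against 4011 genes called here, so the adjusted threshold was stricter and these shares do not carry over. Among the genes called here, 6 of the 13 higher and 2 of the 10 lower differed by less than 0.5 log2.

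**Figure D1:**
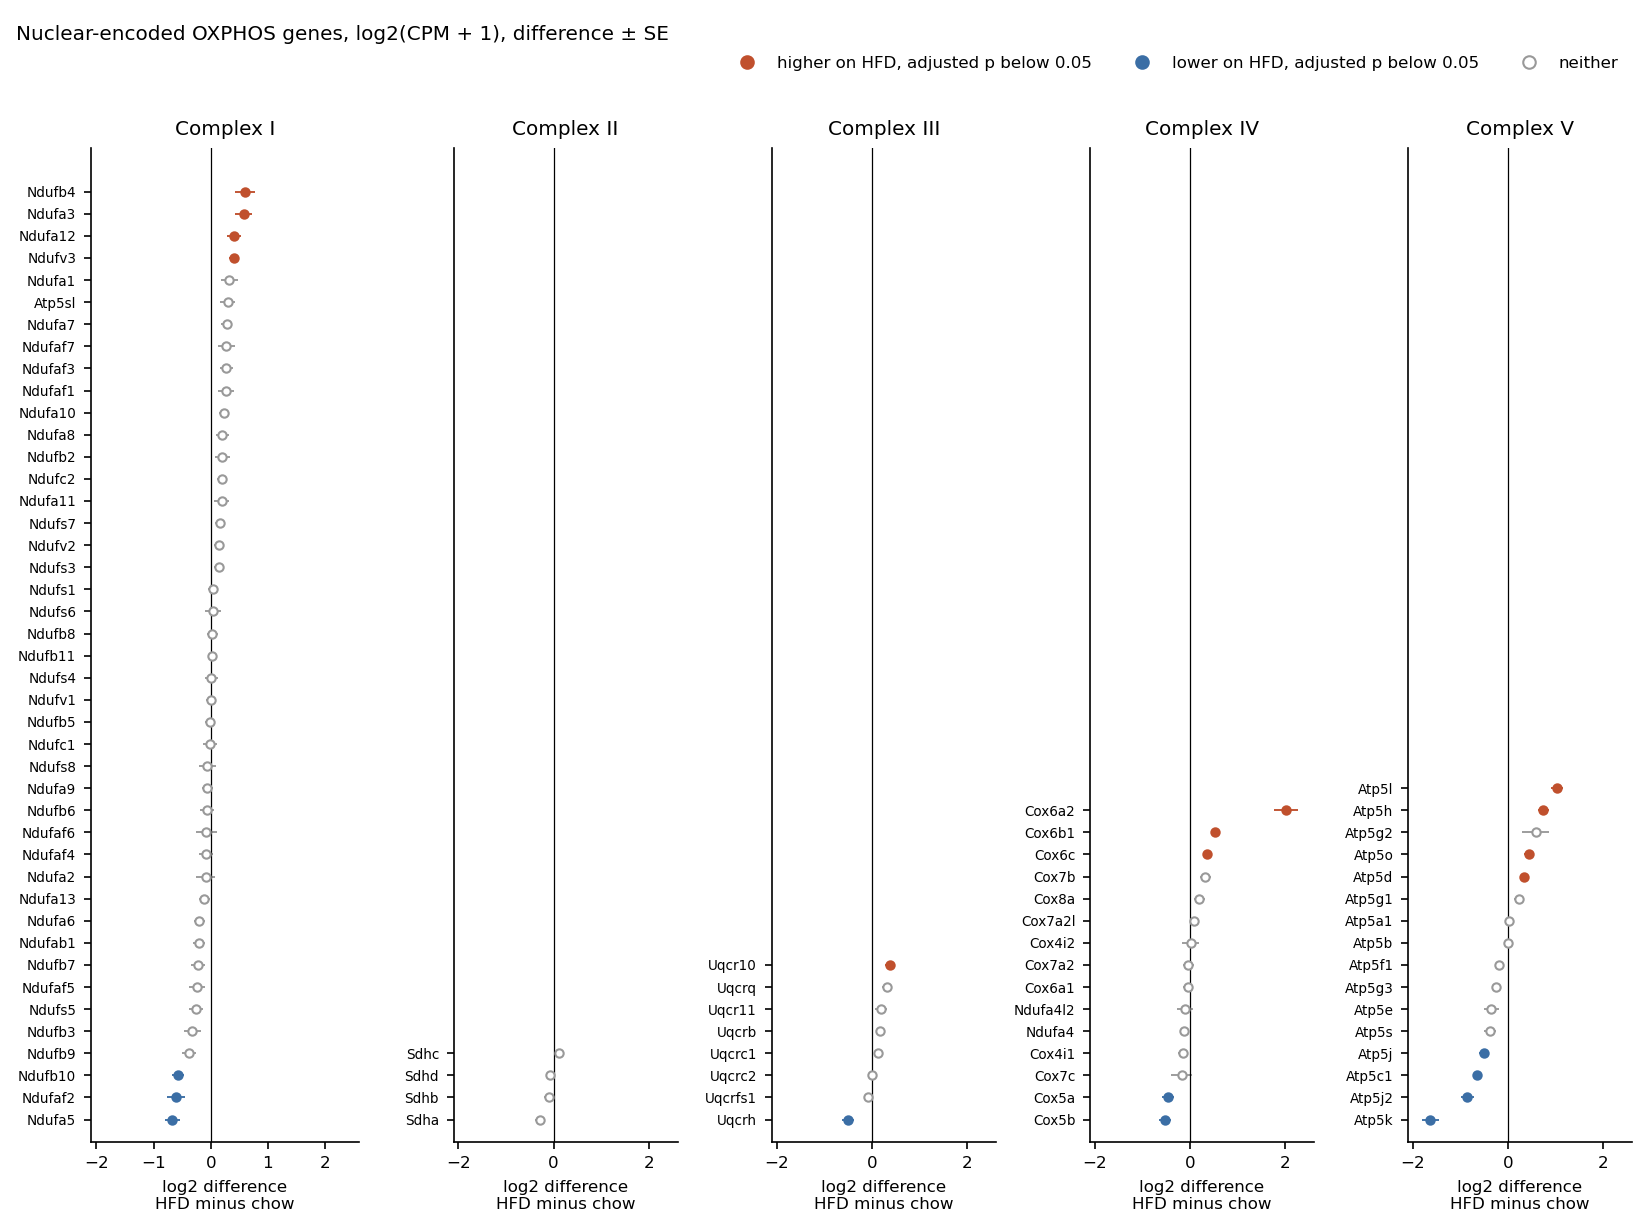
Log2 difference, HFD minus chow, of 86 of the 87 tested genes by complex (x axis, log2 of CPM + 1; points are the difference, bars its SE; filled red, higher on HFD; filled blue, lower on HFD; open grey, neither). Complex I shows 4 genes higher and 3 lower, complex II none, complex III 1 and 1, complex IV 3 and 2, and complex V 4 and 4, with Cox6a2 at the upper end and Atp5k at the lower.

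Complex I, which oxidises NADH, is built of a catalytic core and many accessory subunits. Of the 43 genes of complex I reported here, 4 were higher and 3 lower on HFD (14.9% and 8.78% of all genes tested), and their median difference was 0.02 log2. Among the nuclear core subunits, most of which carry the flavin or iron-sulfur clusters, Ndufs1, Ndufs3, Ndufs7, Ndufs8, Ndufv1 and Ndufv2 differed by -0.06 to 0.16 log2, and none of these 6 passed. Ndufv1, which holds the flavin that accepts electrons from NADH, was at 36.8, 33.4 and 32.3 CPM on HFD and 33 and 35.1 CPM on chow, with a 95% interval of the difference of -0.21 to 0.22 log2.

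The 29 accessory subunits of complex I surround the core and are needed for its stability and assembly. Of these, 4 were higher and 2 lower (14.9% and 8.78% of all genes tested). Ndufb4, a subunit of the membrane arm, was at 7.92, 5.43 and 7 CPM in HFD libraries and 4.43 and 3.75 CPM in chow libraries (0.6 ± 0.18 log2, SE; limma, adjusted p = 0.047). Ndufa3, another small membrane-bound subunit, was at 13.8, 10.1 and 10.5 CPM in HFD libraries and 7.43 and 7.17 CPM in chow libraries (0.58 ± 0.15 log2, SE; limma, adjusted p = 0.0343). The groups of both genes did not overlap, yet Ndufa3 lost its call with any 1 library left out and Ndufb4 with 4 of the 5. Both also lost it with median-ratio scaling, with the trimmed mean of M values and with library sizes free of acinar and insulin genes, where they were at 0.16 and 0.21 log2. Ndufa12 and Ndufv3 rose by 0.41 and 0.4 log2. Ndufa12 lost its call with each of the 5 libraries left out and under 8 of the 13 other settings, and Ndufv3 with 2 of the 5 libraries left out and under 3 settings. Both turned round, to -0.03 and -0.05 log2, with library sizes free of acinar and insulin genes. The settings that ended both calls included acinar content as a covariate, where 6.82% of all genes tested were higher.

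Lower on HFD were Ndufa5 and Ndufb10. Both lost their calls with acinar content as a covariate. In that fit 4.44% of all genes tested were lower, against 8.78% in the main fit. Over the 13 other settings the difference of Ndufa5 ran from -1.08 to -0.56 log2 and that of Ndufb10 from -1.03 to -0.5 log2. Ndufa5, a subunit of the arm that projects into the matrix, was at 6.12, 4.82 and 5.23 CPM in HFD libraries and 9.08 and 9.2 CPM in chow libraries (-0.67 ± 0.14 log2, SE; limma, adjusted p = 0.0157). Ndufb10, a membrane-arm subunit facing the intermembrane space, was at 18.9, 16.2 and 19.4 CPM in HFD libraries and 27.4 and 27.8 CPM in chow libraries (-0.58 ± 0.1 log2, SE; limma, adjusted p = 0.0103). Every HFD library of these genes lay below both chow libraries, and the call of Ndufb10, not that of Ndufa5, held with each library left out. Ndufb11, the accessory gene with the highest mean CPM, was at 44.8, 42.3 and 43 CPM on HFD and 43.4 and 41.8 CPM on chow (0.02 log2, 95% interval -0.16 to 0.21). The remaining 22 accessory genes that did not pass ran from -0.38 (Ndufb9) to 0.32 log2 (Ndufa1).

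The 8 assembly factors of complex I among these names act on intermediates and are not part of the finished enzyme. Ndufaf2, which binds a late intermediate in place of an accessory subunit, was lower, with 1.43, 1.54 and 1.79 CPM in HFD libraries and 3.24 and 2.67 CPM in chow libraries (-0.61 ± 0.16 log2, SE; limma, adjusted p = 0.0324). With acinar content as a covariate, where 4.44% of all genes tested were lower, it did not pass. Over the 13 other settings its difference ran from -0.94 to -0.47 log2. Its call was lost without any of 4 of the libraries. The other 7 did not pass and ran from -0.24 (Ndufaf5) to 0.29 log2 (Atp5sl, a complex I factor also called Dmac2 in spite of its name). Ndufaf3, the assembly factor with the highest mean CPM of the group, was at 11, 10.3 and 11 CPM on HFD and 8.19 and 9.28 CPM on chow (0.27 log2, adjusted p = 0.121, limma).

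**Figure D2:**
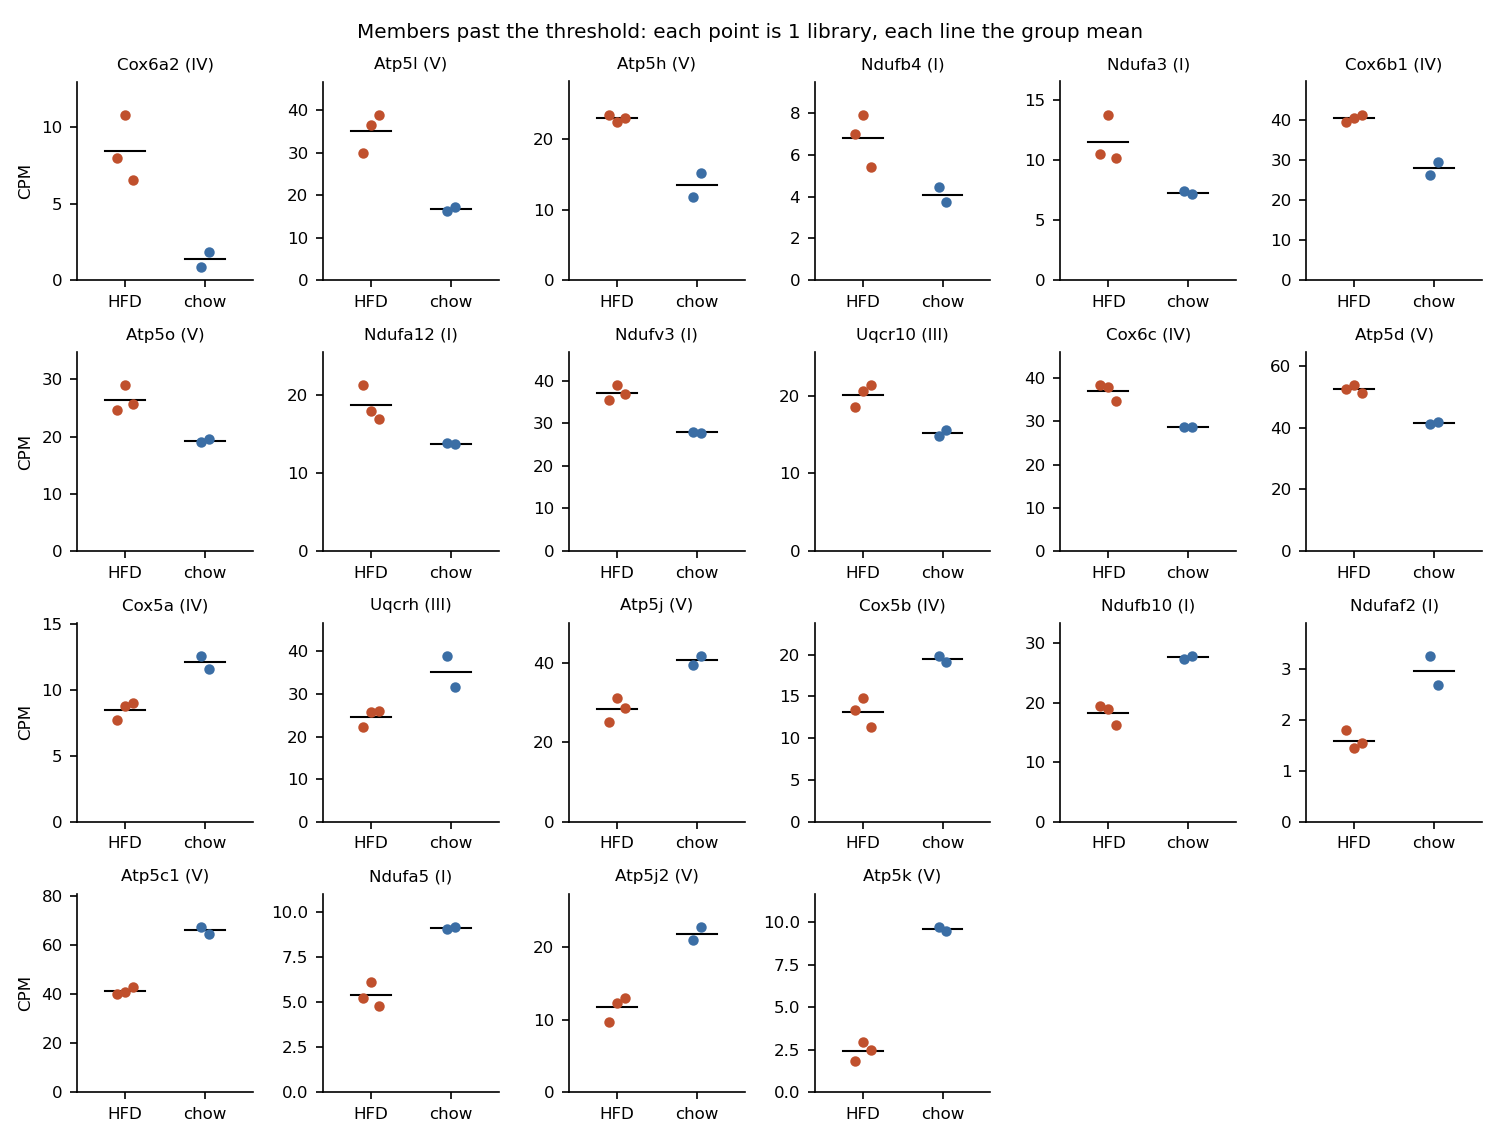
CPM of 22 of the 23 genes past the threshold in each of the 5 libraries (y axis, CPM, starting at 0; red, HFD; blue, chow; points are libraries, lines group means; complex in brackets). In all 22 the groups do not overlap, as in 55.4% of all genes tested, and the choice by adjusted p favours such genes. The genes are ordered by their difference, with Cox6a2 at 10.8, 6.56 and 7.99 CPM on HFD against 0.851 and 1.86 CPM on chow at one end and Atp5k at 2.97, 2.52 and 1.84 against 9.71 and 9.49 CPM at the other.

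Complex II, succinate dehydrogenase, is the enzyme shared by the citric acid cycle and the respiratory chain, and it has no subunit from mitochondrial DNA. With limma, 0 of its 4 genes passed in either direction, against 23.7% of all genes tested. At an unadjusted p below 0.05, where the share of all genes was not counted, 1 gene, Sdha, was lower. Sdha, the flavoprotein that oxidises succinate, was at 126, 122 and 112 CPM in HFD libraries and 133 and 161 CPM in chow libraries, groups that do not overlap (-0.29 log2, 95% interval -0.55 to -0.03, limma adjusted p = 0.102). Sdhb, the iron-sulfur subunit, was at 25.9, 24.2 and 22.5 CPM in HFD libraries and 26.2 and 26 CPM in chow libraries (-0.11 log2, 95% interval -0.32 to 0.11). The membrane anchors Sdhc and Sdhd overlapped between the diets. Sdhc was at 39.7, 39.2 and 36.1 CPM on HFD and 32.7 and 37.8 CPM on chow (0.12 log2, 95% interval -0.11 to 0.34). Sdhd was at 50.7, 51.1 and 45 CPM on HFD and 48.1 and 55 CPM on chow (-0.07 log2, 95% interval -0.31 to 0.16).

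Complex III, the cytochrome bc1 complex, had 1 gene higher and 1 lower among its 8 (14.9% and 8.78% of all genes tested). Uqcr10, a small supernumerary subunit, was at 20.6, 21.3 and 18.5 CPM in HFD libraries and 14.8 and 15.6 CPM in chow libraries (0.38 ± 0.1 log2, SE; limma, adjusted p = 0.0336), lost its call under 8 of the 13 other settings and was -0.06 log2 with library sizes free of acinar and insulin genes. Uqcrh, the hinge protein that bridges to cytochrome c1, was at 25.7, 26 and 22.1 CPM in HFD libraries and 38.9 and 31.6 CPM in chow libraries (-0.5 ± 0.12 log2, SE; limma, adjusted p = 0.0268). Both genes lost their calls with acinar content as a covariate, where 6.82% of all genes tested were higher and 4.44% lower. Over the 13 other settings the difference of Uqcrh ran from -0.95 to -0.45 log2. The groups did not overlap for either gene, but each kept its call in only 1 of the 5 fits that left out a library. Uqcrc2, a core protein and the complex III gene with the highest mean CPM, was at 56.2, 55.4 and 51 CPM on HFD and 51.9 and 56.3 CPM on chow, with a 95% interval of -0.2 to 0.2 log2. The catalytic Rieske iron-sulfur protein Uqcrfs1 was at 39.1, 43.5 and 37 CPM on HFD and 42.2 and 42 CPM on chow (-0.08 log2, adjusted p = 0.558, limma).

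Complex IV, cytochrome c oxidase, held the largest rise of the 87 genes tested, that of Cox6a2. Cox6a2 encodes the form of subunit VIa that is best known from heart and skeletal muscle, and Cox6a1 the widely expressed form. Cox6a2 was at 10.8, 6.56 and 7.99 CPM in HFD libraries against 0.851 and 1.86 CPM in chow libraries. The lowest HFD library thus lay well above the higher chow library, and the difference was 2.01 ± 0.26 log2 (SE; limma, adjusted p = 0.003). With any 1 library left out it stayed between 1.7 and 2.33 log2 and past the threshold, and it lost the call in 1 other setting, without the filter on low values (adjusted p = 0.0852). Cox6a1 did not move with it, at 32.5, 29.3 and 32.7 CPM on HFD and 31.2 and 34.2 CPM on chow (-0.05 log2, 95% interval -0.27 to 0.16). Per kilobase of transcript, Cox6a2 averaged 12.4 CPM on HFD and 2 CPM on chow, against 55.2 CPM on HFD and 57.2 CPM on chow for Cox6a1.

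Of 6 markers of muscle and brown fat, 5, Myh1, Ckm, Mb, Ucp1 and Cidea, stayed below the filter. Acta1, the skeletal muscle actin, passed it, at 2.32, 2.18 and 1.55 CPM on HFD and 1.11 and 1.4 CPM on chow (0.41 log2, adjusted p = 0.136, limma). Summed, the 6 markers made up 2.97, 2.64 and 2.06 CPM in HFD libraries and 2.14 and 1.64 CPM in chow libraries. In GENCODE M21 the gene Cox6a2 lies within the span of Itgad, on the other strand, and whether strand was used in counting is not given in the sources used here. Itgad was at 0.443, 0.712 and 0.924 CPM in HFD libraries and 0.084 and 0.251 CPM in chow libraries, below the filter. Its part in the values of Cox6a2 was not tested.

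Among the other complex IV subunits, Cox6b1, which helps hold the enzyme in its dimeric form, was at 40.3, 41.3 and 39.5 CPM in HFD libraries and 26.2 and 29.5 CPM in chow libraries (0.52 ± 0.09 log2, SE; limma, adjusted p = 0.0077). That call held with each library left out but not with library sizes free of acinar and insulin genes, where it was 0.07 log2 (adjusted p = 0.641). Cox6c rose by 0.36 log2, kept its call in 1 of the 5 fits that left out a library, and was -0.1 log2 under that scaling. Cox6c also lost its call with acinar content as a covariate. Cox5a and Cox5b, the subunits Va and Vb of the enzyme's matrix side, were both lower. Both lost their calls in that same fit, where 6.82% of all genes tested were higher and 4.44% lower. Over the 13 other settings the difference of Cox5a ran from -0.89 to -0.36 log2 and that of Cox5b from -0.98 to -0.38 log2. Cox5b was at 14.8, 11.3 and 13.4 CPM in HFD libraries and 19.8 and 19.1 CPM in chow libraries (-0.53 ± 0.13 log2, SE; limma, adjusted p = 0.025). Cox5a was at 8.75, 9.01 and 7.67 CPM in HFD libraries and 12.5 and 11.6 CPM in chow libraries (-0.46 ± 0.12 log2, SE; limma, adjusted p = 0.0322). Neither overlapped between the diets, and leaving out a library ended the call of Cox5a in 5 of 5 fits and that of Cox5b in 4 of 5.

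Apart from Cox6b1, none of the other widely expressed and restricted isoforms tested passed the threshold. Cox4i1, the common form of subunit IV, was at 64.8, 57.8 and 54.3 CPM on HFD and 63.7 and 66.6 CPM on chow, and Cox4i2, known from lung, was at 0.675, 0.827 and 0.468 CPM on HFD and 0.478 and 0.81 CPM on chow. Cox8a, the common form of subunit VIII, was at 56.5, 60 and 71.2 CPM on HFD and 51.2 and 57.4 CPM on chow. Its partners Cox8b and Cox8c each had a value above 0 in 1 of the 5 libraries. Cox7a2 and the related Cox7a2l, a factor in joining complexes III and IV into supercomplexes, differed by -0.04 and 0.09 log2, while the muscle form Cox7a1 lay between 0.289 and 0.464 CPM in all 5 libraries. Cox7a2l had the highest mean CPM of complex IV, at 159, 161 and 164 CPM on HFD and 149 and 154 CPM on chow. Cox7b was at 35.4, 29.8 and 27.9 CPM on HFD and 24.1 and 24.9 CPM on chow (0.32 log2, adjusted p = 0.0822, limma), and Cox7b2 was at or below 0.0844 CPM throughout. Ndufa4, once counted to complex I and now known as a complex IV subunit, was at 23.2, 23.8 and 23 CPM on HFD and 24 and 26.9 CPM on chow, and its relative Ndufa4l2 at 1.85, 1.46 and 2.15 CPM on HFD and 2.1 and 1.97 CPM on chow. The testis form Cox6b2 did not exceed 0.177 CPM. Of the 3 restricted forms with enough reads to be tested, Cox4i2, Cox6a2 and Ndufa4l2, only Cox6a2 passed.

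**Figure D3:**
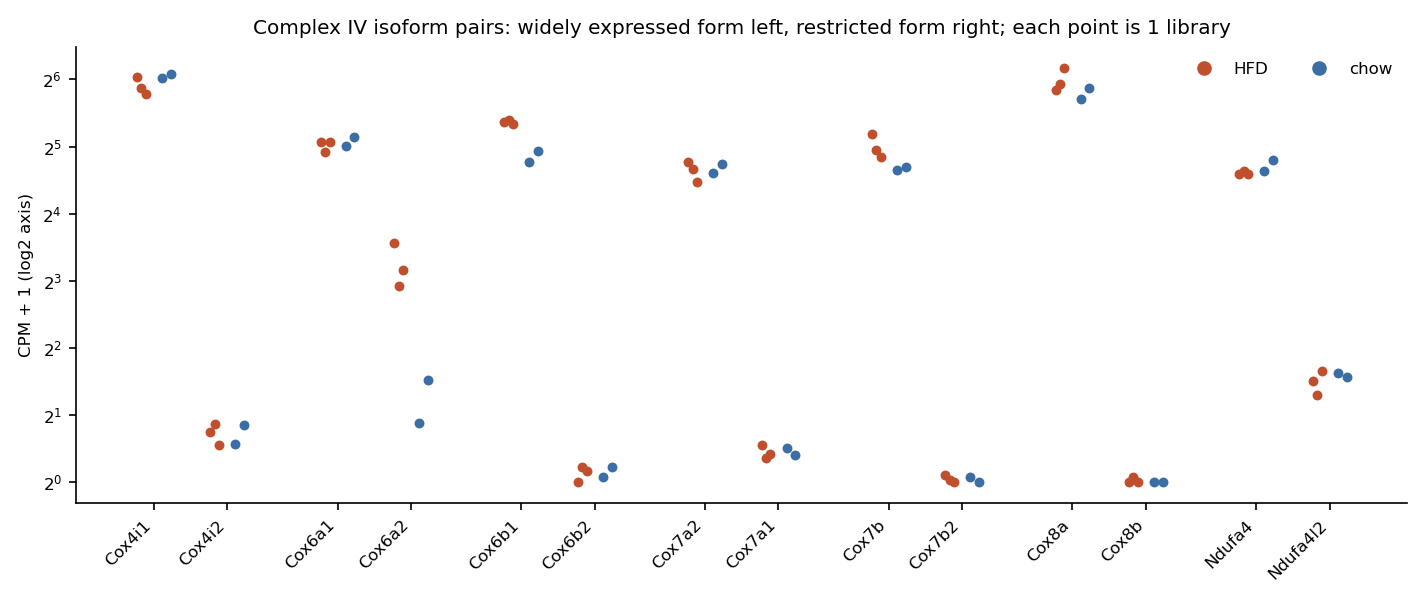
CPM + 1 of widely expressed and restricted complex IV isoforms in each of the 5 libraries (log2 y axis; red, HFD; blue, chow; in each pair the widely expressed form stands left). Cox6a2 is the restricted form whose HFD points, 6.56 to 10.8 CPM, stand clear of its chow points, 0.851 and 1.86 CPM, while Cox4i2, Cox6b2, Cox7a1, Cox7b2, Cox8b and Ndufa4l2 overlap between the diets.

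Complex V, the ATP synthase, joins a catalytic F1 head to a membrane part by a central and a peripheral stalk. Of its 16 genes, 4 were higher and 4 lower on HFD, where 14.9% of all genes tested were higher and 8.78% lower. The catalytic alpha and beta subunits did not pass: Atp5a1, the complex V gene with the highest mean CPM, was at 310, 313 and 303 CPM on HFD and 291 and 315 CPM on chow, and Atp5b at 249, 235 and 241 CPM on HFD and 227 and 255 CPM on chow. Their differences were 0.03 and 0.01 log2, and with library sizes free of acinar and insulin genes both turned to a fall, of -0.44 and -0.46 log2. Within F1, Atp5c1, the gamma subunit that turns inside the head, was at 40.7, 43 and 40.2 CPM in HFD libraries against 67.3 and 64.6 CPM in chow libraries (-0.66 ± 0.08 log2, SE; limma, adjusted p = 0.0021). It was one of the 2 called genes, with Atp5k, that kept their call under each of the 13 other settings and with each library left out. Atp5d, the delta subunit at the foot of the central stalk, was at 53.7, 51.4 and 52.5 CPM on HFD and 41.2 and 41.9 CPM on chow, a rise of 0.33 log2 that kept its call in 1 of the 5 fits that left out a library and was -0.13 with library sizes free of acinar and insulin genes. Atp5d also lost its call with acinar content as a covariate, where 6.82% of all genes tested were higher. In the main fit the 5 genes of F1 thus held 1 higher, 1 lower and 3 that did not pass.

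In the membrane part, all 3 small accessory subunits with Atp5 names passed, in both directions. Atp5k, subunit e, which helps join ATP synthases into dimers that shape the cristae, was at 2.97, 2.52 and 1.84 CPM in HFD libraries against 9.71 and 9.49 CPM in chow libraries. This was the largest fall of the 87 genes, with the highest HFD library below both chow libraries (-1.64 ± 0.18 log2, SE; limma, adjusted p = 0.0015). Atp5j2, subunit f, was at 12.3, 13 and 9.74 CPM in HFD libraries and 20.9 and 22.8 CPM in chow libraries (-0.86 ± 0.14 log2, SE; limma, adjusted p = 0.0069). Atp5l, subunit g, which sits beside subunit e at the dimer contact, was at 36.5, 39 and 29.9 CPM in HFD libraries and 16.2 and 17.2 CPM in chow libraries (1.02 ± 0.12 log2, SE; limma, adjusted p = 0.0025). All 3 kept their calls with each library left out, and subunits e and g, neighbours in the enzyme, thus had opposite differences in these libraries.

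The peripheral stalk holds the head still against the turning rotor. Its subunit d, Atp5h, was at 22.5, 23 and 23.5 CPM in HFD libraries and 11.7 and 15.2 CPM in chow libraries (0.74 ± 0.12 log2, SE; limma, adjusted p = 0.0071), but at 0.3 log2 with library sizes free of acinar and insulin genes it did not pass (adjusted p = 0.113). The oligomycin-sensitivity protein Atp5o, which ties the stalk to the head, rose by 0.44 log2, kept its call in 2 of the 5 fits that left out a library and was -0.01 with library sizes free of acinar and insulin genes. Coupling factor 6, Atp5j, was lower, at 31.1, 28.8 and 25 CPM on HFD, against 39.7 and 41.8 CPM on chow (-0.51 ± 0.11 log2, SE; limma, adjusted p = 0.0173). It lost its call without HFD replicate 2. With acinar content as a covariate both Atp5j and Atp5o lost their calls. In that fit 6.82% of all genes tested were higher and 4.44% lower. Over the 13 other settings the difference of Atp5j ran from -0.97 to -0.5 log2. Atp5f1, subunit b, and Atp5s, coupling factor B, did not pass, at -0.19 and -0.39 log2. The 3 genes of the c-ring, Atp5g1, Atp5g2 and Atp5g3, encode the same mature protein and differ in their import signals. Atp5g1 was at 13.1, 13.5 and 14.3 CPM on HFD and 10.9 and 12.3 CPM on chow, and Atp5g3 at 40.3, 41.4 and 37.3 CPM on HFD and 47.3 and 48.2 CPM on chow, with neither past the threshold (0.22 and -0.26 log2, adjusted p = 0.173 and 0.0584, limma). The inhibitor of the enzyme, Atpif1, which the naming does not include, was lower, at 23.9, 20.8 and 18.9 CPM on HFD and 28.7 and 30.2 CPM on chow (-0.46 ± 0.11 log2, SE; limma, adjusted p = 0.0289).

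Several of these genes have near-identical copies elsewhere in the genome, mostly processed pseudogenes (old copies of the spliced transcript), which can take reads that belong to the gene, or give them to it. How such reads were assigned is not given in the sources used here. Of the 87 genes tested, 18 had at least 1 copy with a row in the table that shared 10% or more of the 31-base words of the gene's transcript, 31 copies in all. The sequences show how alike they are. For the genes below, the first 60 coding bases that could be aligned without a gap are given, 5′ to 3′, as DNA, from the transcripts of GENCODE M21, with bases that differ between gene and copy in capitals and the rest in lower case. Atp5h lies on chromosome 11 and its copy Gm10250 on chromosome 15. Atp5l lies on chromosome 9 and Gm10221 on chromosome 5, and Atp5g2 on chromosome 15 and Gm10175 on chromosome 7. Cox7c lies on chromosome 13, Gm12338 on chromosome 11 and Gm10012 on chromosome 17, and Atp5f1 on chromosome 3 and Gm12231 on chromosome 11. Where a gene and the copy shown with it do not differ in the window, they share 1 line. Gm12338 is identical to Cox7c in the window and is not printed, and the capital in the Cox7c line marks the difference from Gm10012.
Atp5h and Gm10250: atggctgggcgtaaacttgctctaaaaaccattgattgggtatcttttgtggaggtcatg
Atp5l and Gm10221: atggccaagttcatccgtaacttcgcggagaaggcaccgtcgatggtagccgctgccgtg
Atp5g2 and Gm10175: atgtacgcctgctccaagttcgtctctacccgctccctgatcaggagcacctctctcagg
Cox7c: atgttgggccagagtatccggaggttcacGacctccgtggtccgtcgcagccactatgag
Gm10012: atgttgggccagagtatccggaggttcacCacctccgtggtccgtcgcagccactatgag
Atp5f1: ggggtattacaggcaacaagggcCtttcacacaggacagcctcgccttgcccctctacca
Gm12231: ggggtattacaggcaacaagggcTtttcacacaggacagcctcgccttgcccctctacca

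Over the whole coding sequence, Atp5l and Gm10221 were identical in 309 of 309 bases, Atp5g2 and Gm10175 in 438 of 438, and Cox7c and Gm12338 in 189 of 189. Atp5h and Gm10250 were identical in 478 of 480 aligned bases, Cox7c and Gm10012 in 187 of 189, and Atp5f1 and Gm12231 in 684 of 691. The coding sequences of Atp5h and Atp5f1 have 483 and 768 bases, so their alignments did not cover all of them. When the CPM of each gene and its copies were added up, an alternative chosen after seeing the data, 12 genes were higher and 10 lower (14.9% and 8.78% of all genes tested), and 5 calls changed. Atp5h lost its call. Its copies were at 23.7, 21.2 and 24.2 CPM in HFD libraries and 32.6 and 29.6 CPM in chow libraries, so that the sum was 46.2, 44.1 and 47.7 CPM on HFD and 44.3 and 44.7 CPM on chow (0.05 ± 0.08 log2, SE; limma, adjusted p = 0.693). Gene and copies thus had opposite differences and the sum overlapped between the diets. Ndufa12 and Cox5a also lost their calls, with sums that differed by 0.37 and -0.36 log2 (adjusted p = 0.0607 and 0.0809, limma).

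Cox7c and Atp5f1 gained a call. Cox7c, a small subunit of complex IV, was itself at 2.78, 3.07 and 4.49 CPM on HFD and 3.16 and 4.92 CPM on chow, with no difference past the threshold (-0.18 log2, adjusted p = 0.599, limma). Its copies carried 91.3% of the summed value. The sum was 48.3, 49.4 and 54.9 CPM in HFD libraries and 29.4 and 29.3 CPM in chow libraries, higher on HFD by 0.77 ± 0.09 log2 (SE; limma, adjusted p = 0.0019). Within that sum Gm10012 was at 27.2, 28.9 and 22.5 CPM on HFD and 10.2 and 9.04 CPM on chow, and Gm12338 at 18.2, 17.4 and 27.9 CPM on HFD and 16 and 15.3 CPM on chow. For Atp5f1 the copy Gm12231 was at 6.02, 7.71 and 6.17 CPM on HFD and 22.1 and 21.2 CPM on chow, and the sum of 53.5, 52 and 47.7 CPM on HFD against 73 and 71.8 CPM on chow was lower (-0.5 ± 0.08 log2, SE; limma, adjusted p = 0.008).

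Other calls stood with their copies added. The sum for Atp5l was 63.3, 64.6 and 51.6 CPM in HFD libraries and 34.9 and 40.3 CPM in chow libraries, and the difference of 1.02 log2 became 0.65 ± 0.12 (SE; limma, adjusted p = 0.0122). Atp5k, whose single copy shares 14.4% of its words, differed by -1.53 log2 in the sum (adjusted p = 0.0024, limma). Atp5g2 was at 3.99, 2.54 and 1.69 CPM on HFD and 1.07 and 1.85 CPM on chow, while its copies, nearly all Gm10175, were at 41.6, 43.4 and 44.6 CPM on HFD and 46 and 48 CPM on chow. The sums of 45.6, 45.9 and 46.3 CPM on HFD and 47.1 and 49.9 CPM on chow did not differ past the threshold (-0.08 log2, adjusted p = 0.49, limma). Among the 69 tested genes without a copy in the table, 9 were higher and 6 lower, where 14.9% of all genes tested were higher and 8.78% lower. The values of the 18 genes with copies are therefore uncertain, and the calls of Atp5h and Cox7c differed with and without their copies. Some of the 69 have copies elsewhere in the genome for which no values are given, so their values are uncertain too. Among them, Ndufb4 shares 38.3% of its words with Ndufb4c and Cox6c 26.2% with Cox6c2, and both were called higher. Ndufs6 shares 26.8% with Ndufs6b and Cox6a1 23.8% with a copy on chromosome 19, and neither passed. Counting genes at the same locus, 37 genes shared 10% or more of their words with another gene.

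**Figure D4:**
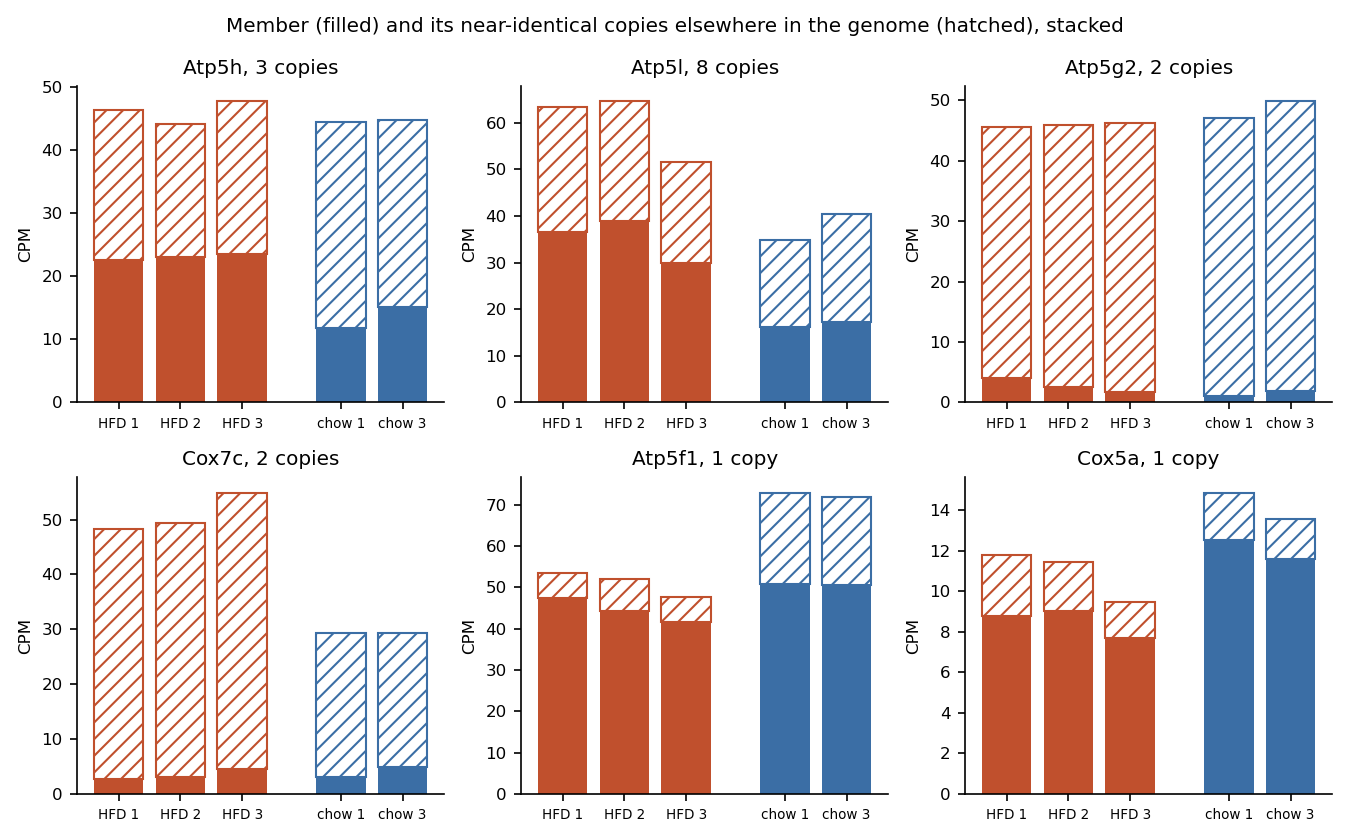
CPM of 6 genes (filled) and of their near-identical copies (hatched), stacked, in each of the 5 libraries (y axis, CPM from 0; red, HFD left; blue, chow right). For Atp5h the stacks reach 44.1 to 47.7 CPM on HFD and 44.3 and 44.7 CPM on chow although the filled parts differ, and for Cox7c the hatched copies hold nearly all of the 48.3 to 54.9 CPM on HFD and of the 29.4 and 29.3 CPM on chow.

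The summed level of the 92 genes differed by less than the spread between libraries. They summed to 2803, 2714 and 2639 CPM in HFD libraries and 2604 and 2762 CPM in chow libraries (exact two-sided permutation p = 0.8, the smallest possible with 3 against 2 being 0.2, adjusted p = 0.8 over 6 sums). As a share of the summed CPM of all genes they were at 0.291, 0.326 and 0.3% on HFD and 0.309 and 0.41% on chow, or 0.306% ± 0.018 and 0.359% ± 0.071 (SD, HFD n = 3 and chow n = 2), with p = 0.4 in the exact two-sided permutation test (adjusted p = 0.6). By complex, the sum of complex I was 866, 832 and 816 CPM on HFD and 775 and 806 CPM on chow, and that of complex IV 516, 495 and 509 CPM on HFD and 461 and 489 CPM on chow. HFD libraries lay above chow libraries in these 2 sums, with an exact two-sided permutation p = 0.2 and an adjusted p = 0.6. As shares of the summed CPM both turned round and overlapped, with means of 0.0942% on HFD and 0.106% on chow for complex I and 0.057% on HFD and 0.0636% on chow for complex IV (exact two-sided permutation p = 0.6, adjusted p = 0.6). The sums of complexes II, III and V overlapped between the diets in CPM. As a share, complex II did not overlap, at 0.0252, 0.0284 and 0.0245% on HFD and 0.0285 and 0.0415% on chow (exact two-sided permutation p = 0.2, adjusted p = 0.6). The 13 subunits from mitochondrial DNA are listed at 0 in every library, so nuclear and mitochondrial subunits could not be set side by side.

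**Figure D5:**
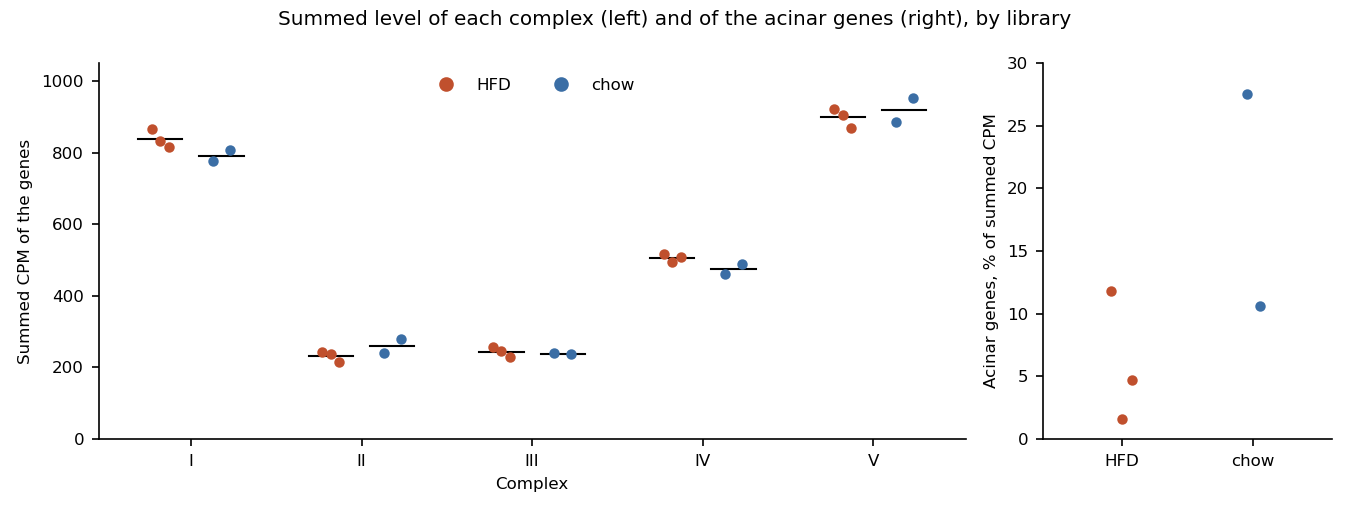
Left, summed CPM of the genes of each complex in each library (y axis from 0; red, HFD; blue, chow; lines are group means). Right, acinar genes as a percentage of the summed CPM of each library, at 11.8, 1.6 and 4.73% on HFD and 27.5 and 10.6% on chow. The sums of complex I, 816 to 866 CPM on HFD against 775 and 806 CPM on chow, and those of complex IV stand apart by diet in CPM, not as shares of the summed CPM, while those of complexes II, III and V overlap in CPM.

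Genes that work with the complexes were counted from fixed lists in the same fit, in which 14.9% of all genes tested were higher and 8.78% lower. Of 20 tested assembly factors of complex IV, 2 were higher and 4 lower on HFD. Cox17, the copper chaperone that supplies the enzyme, was at 12.4, 12.3 and 13.4 CPM in HFD libraries and 23.9 and 24 CPM in chow libraries (-0.87 log2; limma, adjusted p = 0.0015). Cox18, which inserts a part of a mitochondrially encoded subunit into the membrane, was at 3.25, 3.65 and 4.64 CPM on HFD and 6.57 and 6.93 CPM on chow (-0.69 log2; limma, adjusted p = 0.0252). Cox14 and Coa3, partners in the early assembly of subunit I, rose by 0.39 and 0.37 log2. Cox11 and Cox20, which act on the copper sites and on subunit II, fell by 0.56 and 0.62 log2. The median of the 20 was 0.12 log2, against 0.05 over all genes.

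Of 8 tested assembly factors of complex I outside the Nduf names, 1 passed. Acad9, an acyl-CoA dehydrogenase that also builds complex I, was at 541, 231 and 356 CPM in HFD libraries against 13.6 and 13.7 CPM in chow libraries (4.6 log2; limma, adjusted p = 0.00016). Gene totals do not show where in the gene these reads lie, and Acad9, like Rn7sk, separates the libraries as both the diet and the sample-name prefix do. The other 7 ran between -0.23 (Nubpl) and 0.42 log2 (Timmdc1). In GENCODE M21 a second gene, Gm43079, lies within the span of Acad9, and it was at 3.49, 3.12 and 2.83 CPM on HFD and 2.22 and 1.99 CPM on chow. Of the tested assembly factors of complexes II, III and V, 4, 6 and 2 in number, 0 passed with limma. At an unadjusted p below 0.05, 0, 1 and 1 were higher and 0 lower. The share of all genes at that cut-off was not counted, but it is at least the 14.9% higher and 8.78% lower of the adjusted one. Among subunits that the naming leaves out, Usmg5 of complex V was higher (0.46 log2; limma, adjusted p = 0.0295), and 2010107E04Rik, a small subunit of the same complex, was at 12.6, 15 and 15.3 CPM on HFD and 14 and 14.6 CPM on chow (adjusted p = 0.984, limma). Cyc1, the cytochrome c1 of complex III, was at 18.2, 16 and 14.7 CPM on HFD and 20.2 and 21.1 CPM on chow (-0.32 log2, adjusted p = 0.0762).

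Of 17 tested genes of cytochrome c, ubiquinone synthesis and electron entry, 0 were higher and 1 was lower with limma. At an unadjusted p below 0.05, where the share of all genes was not counted, these were 1 and 1. The gene past the adjusted threshold was Etfa, a subunit of the flavoprotein that passes electrons of fatty acid oxidation to ubiquinone. It was at 14, 13.5 and 11.5 CPM in HFD libraries and 27.6 and 24.8 CPM in chow libraries (-0.96 log2, limma, adjusted p = 0.0025). Its partner Etfb was at 29.6, 30.7 and 25.6 CPM on HFD and 28.1 and 26.7 CPM on chow (0.06 log2, adjusted p = 0.709). In the citric acid cycle, 2 of 14 tested genes were higher and 3 lower (14.9% and 8.78% of all genes tested). Ogdh, the first component of the 2-oxoglutarate dehydrogenase complex, rose by 0.44 log2 and fumarase, Fh1, by 0.39 log2. Dld, the dehydrogenase that this complex shares with others, fell by 0.5 log2, and Suclg2 and Sucla2, the nucleotide-specific subunits of succinyl-CoA ligase, fell by 0.43 and 0.36 log2. Of 12 tested regulators of mitochondrial biogenesis, the mitochondrial RNA polymerase Polrmt was higher by 0.44 log2 and the transcription factor Yy1 lower by 0.27 log2. Ppargc1a, the coactivator PGC-1alpha, was at 13.2, 12.6 and 13.3 CPM on HFD and at 4.07 and 13.8 CPM on chow, so that 1 chow library stood alone (0.7 log2, adjusted p = 0.232).

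The promoters of these genes were searched for sites named after 3 factors known to bind genes of oxidative phosphorylation, in the RefSeq promoter table (GRCm38.p6, 250 bases before to 50 after each gene's start, both strands, no string containing another). Of the 92 genes, 74 had an entry. The NRF1 string GCGCANGCG occurred in 22 of the 74 (29.7%), against 14.3% of the 11234 genes of the fit with an entry and 7.03% of all 27025. The ETS string CCGGAAGT occurred in 5 of the 74 (6.76%), against 8.21% of the genes of the fit and 4.31% of all. The YY1 string AAGATGGCG occurred in 8 of the 74 (10.8%), against 3.21% of the genes of the fit and 1.64% of all. The NRF1 string was found in 4 of 10 genes called higher and in 4 of 10 called lower, among them Atp5k and Ndufb4, whose differences have opposite signs. Their promoters are shown, 5′ to 3′ on the minus strand in GRCm38.p6, up to the base before the start, with matches to the NRF1 string in capitals. That of Atp5k is at chr5:108434400-108434649 and that of Ndufb4 at chr16:37654369-37654618.
Atp5k: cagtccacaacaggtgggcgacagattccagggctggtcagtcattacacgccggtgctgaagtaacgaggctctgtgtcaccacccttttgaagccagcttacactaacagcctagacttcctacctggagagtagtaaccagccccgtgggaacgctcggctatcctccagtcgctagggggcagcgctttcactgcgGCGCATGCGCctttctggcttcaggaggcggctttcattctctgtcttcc
Ndufb4: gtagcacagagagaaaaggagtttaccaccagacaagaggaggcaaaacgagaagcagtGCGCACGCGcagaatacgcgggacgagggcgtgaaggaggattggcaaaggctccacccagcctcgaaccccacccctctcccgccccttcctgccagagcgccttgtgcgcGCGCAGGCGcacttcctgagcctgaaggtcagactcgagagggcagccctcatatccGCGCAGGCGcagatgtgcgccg
A match is a description of these letters and not a bound site.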

How the data were processed

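The table held 48321 gene names and 1 column for each of 6 islet samples. Per the submitters' processing notes it was made with Partek, whose version, like the aligner, genome build, annotation and read assignment, is not given here. The deposited values carry no unit in the header. From their lowest value of 1 in each column and the even spacing of the low values they were taken as another unit, CPM with 1 added by the authors, and 1 was subtracted. No count model was used, since many low values were not whole reads. Chow replicate 2, the mean of the other chow columns, was left out.

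Names were matched to GENCODE M21 (46370 names, among them 92 of the 92 genes). R 4.3.3 and limma 3.58.1 were used to fit the difference between diets in 5 libraries, as log2 of CPM plus 1. The variance prior followed the mean. Genes averaging under 0.5 CPM were dropped, which left 16939, and p-values were adjusted over all of these by the Benjamini-Hochberg method. For sums the test was an exact permutation of the libraries, two-sided. On simulated data, with 100 genes changed by 1 and 100 by 0.5 log2, 0 of 65 calls were false. Alternatives were other scalings, pseudocounts, filters, variance priors and sample weights, covariates for acinar content, length and GC content, the averaged column kept, each library left out and, chosen after seeing the data, genes summed with their near-identical copies.

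Named were, in each complex (and each class of complex I), the gene with the highest mean CPM and up to 2 largest rises and 2 largest falls past the threshold, all of complex II, the isoform groups, Atpif1, and up to 2 rises and 2 falls of each list. Ndufa12, Ndufv3, Cox6c, Atp5o, Atp5d, Atp5c1, Atp5j and other genes outside that rule were chosen after their values were seen. One gene of complex I is not reported here by name. The genes and lists were chosen with earlier results of these data known.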

Additional observations from a re-analysis of the deposited data

How the results depend on the processing

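Of the 92 genes, 13 were higher and 10 lower with the deposited CPM, with a median log2 difference of 0.01. The number higher (in brackets the share of all genes tested) was 8 with median-ratio scaling (11.8%), 7 with the trimmed mean of M values (11.2%), 8 without a trend in the variance prior (11.8%), 7 with the acinar score as a covariate (6.82%), 1 of 92 without the filter on low values (1.15% of 48321 names), 2 with library sizes free of acinar and insulin genes (4.75%) and 22 with all 6 columns (25.3%). The number lower was 3 with the acinar score (4.44%), 2 without the filter (0.772%), 49 with library sizes free of acinar and insulin genes (40.6%) and 16 with all 6 columns (16.5%). With the acinar score, Atp5c1, Atp5j2 and Atp5k stayed lower, while Ndufa5, Ndufb10, Ndufaf2, Uqcrh, Cox5a, Cox5b and Atp5j lost their calls. Ndufa12, Ndufv3, Uqcr10, Cox6c, Atp5d and Atp5o, all higher in the main fit, lost theirs too. The median was -0.065 with median-ratio scaling, -0.067 with the trimmed mean of M values and -0.43 with library sizes free of acinar and insulin genes. Leaving out 1 library at a time (the lone chow sample then assumed to vary like the HFD group) gave 5 to 10 higher, 4 to 8 lower and a median of -0.025 to 0.077.

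With library sizes free of acinar and insulin genes 39 differences turned negative, 18 of them past the threshold in one fit or the other. Those with such a call included Atp5a1 (-0.44), Atp5b (-0.46), Atp5d (-0.13), Atp5o (-0.012), Cox6c (-0.099), Cox7a2l (-0.38), Ndufa12 (-0.033), Ndufb11 (-0.43), Ndufv3 (-0.055), Sdhc (-0.34), Uqcr10 (-0.059) and Uqcrc2 (-0.46). Turned without a call were Atp5g1 (-0.21), Cox4i2 (-0.17), Cox7b (-0.13), Cox8a (-0.27), Ndufaf3 (-0.15) and others. This scaling divides by 1.16, 1.11 and 1.15 in HFD libraries and by 0.843 and 0.804 in chow libraries. Summed with its copies, Cox7c changed sign to 0.77 log2. The share of the summed CPM differed by -0.05 percentage points, and by 0.0097 over protein-coding genes alone (exact permutation p = 1), and leaving out a library gave -0.1 to -0.0036. Atp5c1 and Atp5k kept their calls under each setting, and 6 others named here (Ndufb10, Cox6a2, Cox6b1, Atp5h, Atp5j2 and Atp5l) with each library left out. No paired analysis was possible because the labels do not link any chow sample to an HFD sample. In simulated libraries, where far fewer genes changed than were called here, changes of 0.5 log2 were seldom called.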
